A study of Mus musculus with 6 samples.

Results

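The genes described here are 10 genes of the paraxial mesoderm and of Notch signalling in the segmenting embryo: the transcription factors Tbx6, Msgn1 and Mesp2, the Notch ligands Dll1 and Dll3, the Notch modifier Lfng, the receptor Notch1, and the target repressors Hes1, Hes7 and Hey1. They were chosen by name from this biology, with earlier results of these data known. All 10 were found among the 23353 genes listed. Their RNA was measured by mRNA-seq in day 4 embryoid bodies (D4 EBs), the floating aggregates in which mouse embryonic stem cells (mESCs) differentiate. Wildtype EBs were made from the parental W9.5 line. EVX1-Δfs EBs were made from clone 14, a line derived from W9.5 in which CRISPR-Cas9 left small frameshift deletions on both alleles of Evx1, within the part of exon 2 that encodes the homeodomain. Both lines differentiated for 4 days in serum medium lacking LIF, the cytokine that holds mESCs undifferentiated. Each group has 3 libraries, from differentiations begun on separate days with both lines side by side. The mutant group is a single clone, so the edit and any other difference between this clone and its parent cannot be told apart, and p-values measure the spread between differentiations of 1 line each.

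Paraxial mesoderm leaves the primitive streak, forms the presomitic mesoderm and is then cut into somites. In the presomitic mesoderm, Notch ligands on one cell bind the Notch receptor of its neighbour, which is then cleaved by proteases, and its freed inner part joins RBPJ in the nucleus and switches on HES and HEY repressors. These repress their own genes and those of other Notch components, which gives the oscillation known as the segmentation clock. Tbx6 and Msgn1 commit cells to this fate, and Mesp2 marks where the next somite border will form.

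The 250 bases before the transcription start are shown for 3 of the genes, taken from RefSeq on GRCm38.p6. They are Msgn1, whose count differed most in proportion between genotypes, Tbx6, the other factor that commits cells to this fate, and Lfng. The count of Lfng was not called different. RefSeq windows were matched for 8 of the 10 genes, and Dll1 had windows at each of 2 starts. Capitals mark matches on either strand to any of 5 short motifs: the RBPJ core TGGGAA, the T-box site GGTGTGA, the TCF/LEF core CTTTGA, the homeodomain core TAATTA and the HES/HEY site CACGCG. The windows lie at chr12:11208949-11209198 on the minus strand for Msgn1, chr7:126781233-126781482 on the plus strand for Tbx6 and chr5:140607091-140607340 on the plus strand for Lfng, and each reads 5′ to 3′ along its gene.
Msgn1: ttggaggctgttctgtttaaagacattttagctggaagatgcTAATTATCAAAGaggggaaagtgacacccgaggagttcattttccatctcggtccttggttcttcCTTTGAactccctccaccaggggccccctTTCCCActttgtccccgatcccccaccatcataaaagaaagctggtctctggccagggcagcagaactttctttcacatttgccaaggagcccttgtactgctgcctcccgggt
Tbx6: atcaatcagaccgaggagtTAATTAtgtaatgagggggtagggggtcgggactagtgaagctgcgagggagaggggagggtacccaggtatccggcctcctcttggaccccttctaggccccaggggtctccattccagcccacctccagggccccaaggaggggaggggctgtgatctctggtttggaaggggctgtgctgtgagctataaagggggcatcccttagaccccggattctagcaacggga
Lfng: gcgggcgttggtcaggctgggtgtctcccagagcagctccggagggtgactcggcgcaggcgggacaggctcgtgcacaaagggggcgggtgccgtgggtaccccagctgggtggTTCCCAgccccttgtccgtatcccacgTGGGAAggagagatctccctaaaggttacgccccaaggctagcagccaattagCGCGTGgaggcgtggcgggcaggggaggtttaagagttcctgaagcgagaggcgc
The Msgn1 window held TAATTA from 208 to 203 bases before the start, with a TCF/LEF match directly after it, another TCF/LEF match from 143 to 138 bases before the start and an RBPJ match from 114 to 109. The adjoining TAATTA and TCF/LEF matches do not overlap. In the Tbx6 window the only match was TAATTA, from 231 to 226 bases before the start. The Lfng window held 2 RBPJ matches and 1 HES/HEY match. Over the 9 windows of the 8 genes, TGGGAA was present in 3 (Msgn1, Lfng and Hes7), CACGCG in 3 (Lfng, Hes7 and 1 of the Dll1 starts), TAATTA in 2 (Msgn1 and Tbx6), CTTTGA in 1 (Msgn1) and GGTGTGA in 0. Of 32851 promoter windows of the same length in the table, 21.6% held TGGGAA, 7.62% CACGCG, 4.84% TAATTA, 13.8% CTTTGA and 3.33% GGTGTGA. These are matches of letters and no measure of binding.

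Reads assigned to genes numbered 7597879 to 9914471 per library, and 15998 to 16479 genes had at least 1 read. Values are normalized counts, that is reads divided by 1 factor per library. Fold changes compare EVX1-Δfs with wildtype EBs on the log2(normalized count + 1) scale, so negative values are lower in EVX1-Δfs. A gene is called when its Benjamini-Hochberg adjusted p in limma, over the 13136 genes that reached a normalized count of 10 in 3 or more libraries (the filter), was under 0.05. Evx1 itself was at 2311 ± 119 in wildtype EBs against 2294 ± 258 in EVX1-Δfs EBs (SD, n = 3 each), with a log2 fold change of -0.02 ± 0.11 (SE) and an adjusted p of 0.950. A frameshift need not change the count, so this value is no check of the genotype.

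Of the 10 genes, 9 passed the filter, and 7 of these 9 were called lower in EVX1-Δfs EBs, against 2.95% of all genes tested. These were Tbx6, Msgn1, Mesp2, Dll1, Dll3, Hes1 and Hey1. None was called higher, against 2.08% of all genes, and none was higher at an unadjusted p under 0.05 in limma or called higher by DESeq2 or edgeR. The median log2 fold change of the 9 genes was -0.78, beside 0.00 over all genes tested. The 10 genes were chosen with earlier results of these data known. The shares given here and below therefore describe the list and are no independent test of it. In bulk RNA, fewer cells of a type and less RNA per cell cannot be told apart.

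**Figure D1:**
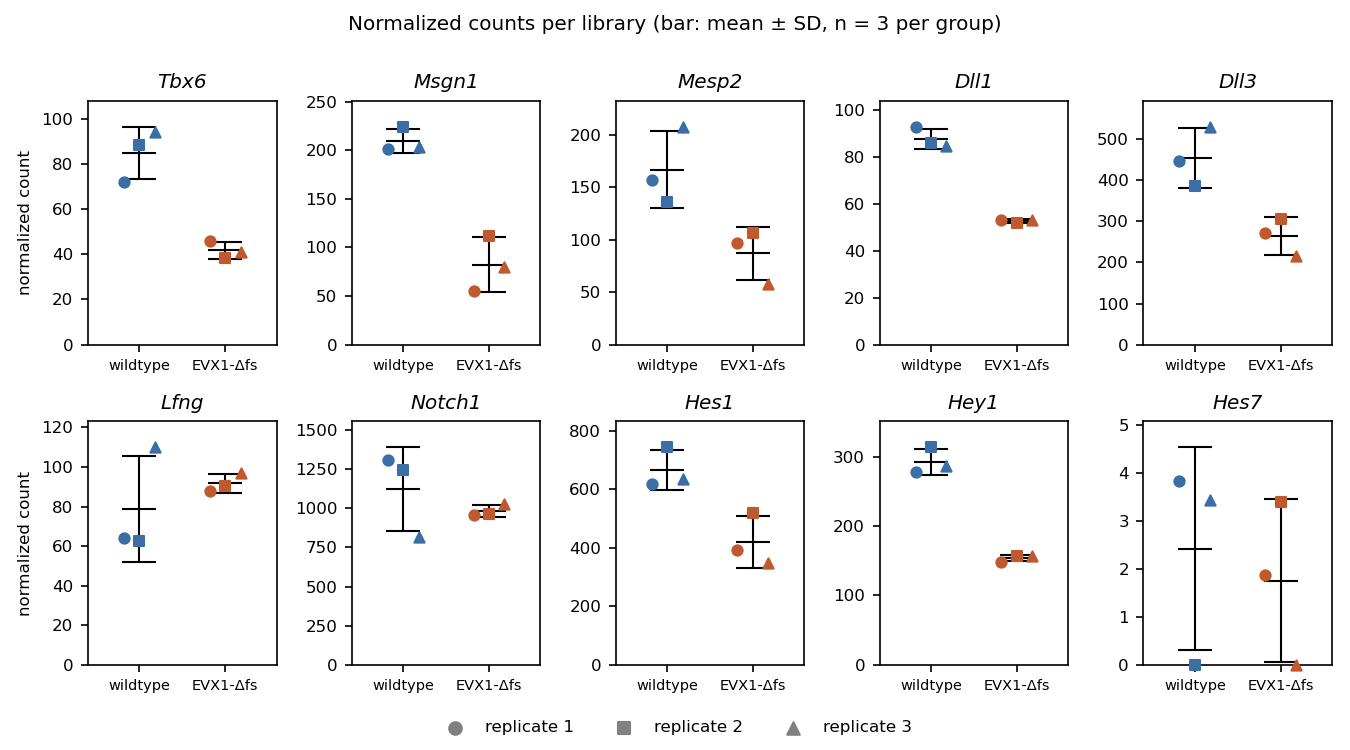
Normalized counts of the 10 genes in each library, by genotype; points are libraries, with the replicate number as the shape, and bars are the mean ± SD of 3 libraries. Every EVX1-Δfs library lies below every wildtype library for Tbx6, Msgn1, Mesp2, Dll1, Dll3, Hes1 and Hey1, while the groups overlap for Lfng, Notch1 and Hes7.

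The transcription factors were lower. Msgn1, a basic helix-loop-helix factor that drives cells out of the progenitor state into presomitic mesoderm, maps to chr12:11215188-11215754 (minus strand; NCBIM37, the assembly of mm9, as for all gene positions here). Its normalized count was 201, 224 and 204 in the wildtype libraries, in order of replicate, and 55.1, 112 and 80.0 in the EVX1-Δfs libraries. The lowest wildtype library was well above the highest EVX1-Δfs library, and the EVX1-Δfs libraries were the more spread out. The EVX1-Δfs mean of 82.3 ± 28.3 (SD, n = 3) was 39.3% of the wildtype mean of 209.5 ± 12.5 (SD, n = 3). At -1.39 ± 0.20 (SE) on the log2 scale, with an adjusted p of 3.0e-04, Msgn1 had the largest change of the 9 tested genes.

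Tbx6, a T-box factor without which presomitic mesoderm takes a neural fate, maps to chr7:133924997-133929074 (plus strand). Its normalized count was 71.8, 88.5 and 93.9 in the wildtype libraries and 45.7, 38.3 and 41.0 in the EVX1-Δfs libraries. The groups did not overlap, and replicate 1 had both the lowest wildtype and the highest EVX1-Δfs value. The log2 fold change was -1.0 ± 0.22 (SE), with an adjusted p of 0.0109, and the EVX1-Δfs mean was 49.2% of the wildtype mean. Between 34 and 100 reads per library lie behind these values, and counting error alone gives 10.8% of the mean per wildtype library and 15.4% per EVX1-Δfs library.

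Mesp2, a basic helix-loop-helix factor of the anterior presomitic mesoderm, maps to chr7:86955613-86958317 (plus strand). It was at 157, 136 and 207 in the wildtype libraries and at 97.1, 106 and 58.1 in the EVX1-Δfs libraries. Replicate 3 held the highest wildtype value together with the lowest EVX1-Δfs value, so the difference within that pair was the widest. The log2 fold change of Mesp2 was -0.95 ± 0.21 (SE), and it was called lower at an adjusted p of 0.0141. That call was lost with the replicate number as a block (adjusted p = 0.0628), without wildtype replicate 3 (0.0606) and without EVX1-Δfs replicate 3 (0.0790, at a log2 fold change of -0.69). The replicate number was taken to mark the day of set-up, which the labels do not state.

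Of the other paraxial mesoderm genes listed for comparison, 12 act in the streak and presomitic mesoderm and 10 in somites. Among these 22, 12 were tested, 4 were called lower and 0 higher, with a median log2 fold change of -0.08. The 4 calls were all among the 10 tested genes of the streak and presomitic mesoderm, whose median was -0.23. The 2 tested somite genes had a median of 0.26. None was higher at an unadjusted p under 0.05, and DESeq2 and edgeR called 0 higher. Mesp1, the close relative of Mesp2 that marks the earliest mesoderm, went from 1331 ± 150 to 662 ± 141 (SD, n = 3 each), a log2 fold change of -1.02 ± 0.14 (SE) with an adjusted p of 1.8e-04. Cyp26a1, the enzyme that clears retinoic acid from the posterior embryo, went from 1028 ± 115 to 480 ± 84.9 (SD, n = 3 each), a log2 fold change of -1.11 ± 0.13 (SE) with an adjusted p of 4.9e-05. Both calls held under all 16 alternative settings tried.

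The remaining calls in this list were less firm. T (Brachyury), the T-box factor of the streak and tailbud, had a log2 fold change of -0.58 ± 0.13 (SE) with an adjusted p of 0.0122, which rose to 0.0566 with the block and to 0.0748 without EVX1-Δfs replicate 1. Wnt3a, the WNT ligand that maintains presomitic mesoderm, was at 39.8 ± 12.2 in wildtype EBs against 12.2 ± 8.07 in EVX1-Δfs EBs (SD, n = 3 each), with a log2 fold change of -1.75 ± 0.39 (SE) and an adjusted p of 0.0131. Its adjusted p was 0.0564 with the block, 0.0595 without wildtype replicate 3 and 0.0613 without EVX1-Δfs replicate 1, and DESeq2 gave it no adjusted p. With the block, 2 of the 12 were called lower, Mesp1 and Cyp26a1. Fgf8, the growth factor of the tailbud, was not called (-0.39 on the log2 scale, adjusted p = 0.0891), except without EVX1-Δfs replicate 2, where its log2 fold change was -0.53 with an adjusted p of 0.0417.

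Most of the listed somite genes were barely detected. Of the 10 listed, 8 stayed under the filter, and their highest normalized count in any library was 5.31. Meox2, a homeobox gene of the somite, had no read in any library. Tcf15 (Paraxis), which is needed for somites to become epithelial, had the highest count per kilobase of the list and was at 94.6 ± 27.6 in wildtype EBs against 118 ± 35.1 in EVX1-Δfs EBs (SD, n = 3 each). Its log2 fold change of 0.32 ± 0.23 (SE) was not called (adjusted p = 0.433). The clock repressor Hes7, which in the embryo is transcribed in the presomitic mesoderm, was near the limit of counting too, as described below.

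Set against T on a per-kilobase scale, so that exon lengths are taken into account, Msgn1 was also lower. The ratio of Msgn1 to T was 0.177, 0.229 and 0.157 in the wildtype libraries and 0.0814, 0.126 and 0.111 in the EVX1-Δfs libraries. The groups did not overlap, and the log2 difference of the ratios was -0.82. The ratio of Tbx6 to T overlapped between groups, at 0.0198 to 0.0284 in wildtype and 0.0136 to 0.0213 in EVX1-Δfs EBs, as did those of Mesp2, Dll1, Dll3 and Hes1 to T. The ratio of Hey1 to T was 0.0567 to 0.0824 in wildtype and 0.0456 to 0.0565 in EVX1-Δfs EBs, which separates the groups only narrowly. Mesp2 and Mesp1 kept nearly the same proportion, with a Mesp2 to Mesp1 ratio of 0.0820 ± 0.00928 in wildtype EBs against 0.0856 ± 0.00907 in EVX1-Δfs EBs (SD, n = 3 each).

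Both Delta ligands were lower. Dll3, a divergent ligand that acts within the cell and dampens Notch signalling, maps to chr7:29076673-29087257 (minus strand). Its normalized count was 447, 385 and 529 in the wildtype libraries and 271, 306 and 214 in the EVX1-Δfs libraries. As with Mesp2, replicate 3 had the highest wildtype and the lowest EVX1-Δfs value, and the groups did not overlap. The log2 fold change of Dll3 was -0.78 ± 0.15 (SE) with an adjusted p of 0.00443, and 0.0391 with the block.

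Dll1, the ligand that activates Notch between presomitic cells, maps to chr17:15504318-15513836 (minus strand). It was at 92.8, 85.8 and 84.7 in the wildtype libraries and at 53.2, 51.9 and 53.4 in the EVX1-Δfs libraries. The groups were far apart for their spread. The EVX1-Δfs SD of 1.55% of the mean, however, is smaller than the 13.7% that counting error alone gives for 46 to 57 reads. In wildtype EBs the SD of 4.98% is also smaller than the 10.6% that counting gives, so this closeness understates the error. The call, at a log2 fold change of -0.72 ± 0.20 (SE) and an adjusted p of 0.0373, was the least firm of the 7: it was lost with the block (adjusted p = 0.0729), with all genes tested instead of those past the filter (0.0703), and on leaving out any 1 of the 6 libraries (0.0648 to 0.109). Exons of Dll1 share 867 bases with A930024N18Rik on the opposite strand, so the value rests on counting by strand.

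The proportion of the ligands to each other was similar in the genotypes. Per kilobase of exon, Dll3 stood at 7.60 ± 1.37 times Dll1 in wildtype EBs against 7.33 ± 1.38 times in EVX1-Δfs EBs (SD, n = 3 each). Of the other ligands listed (Dll4, Jag1, Jag2, Dlk1 and Dner), 4 were tested, and limma, DESeq2 and edgeR called 0 in either direction. At an unadjusted p under 0.05 in limma, 1 was higher and 1 lower. Jag2, a Serrate-type ligand and the highest of them per kilobase, was at 353 ± 49.1 in wildtype EBs against 364 ± 75.5 in EVX1-Δfs EBs (SD, n = 3 each), and its log2 fold change was 0.03 ± 0.15 (SE; adjusted p = 0.926).

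Lfng and Notch1, through which the ligand signal is tuned and received, were not called. Lfng, the Fringe glycosyltransferase that modifies the Notch receptor and cycles with the clock, maps to chr5:141083295-141091497 (plus strand). Its normalized count was 64.1, 62.8 and 109.9 in the wildtype libraries and 87.8, 90.2 and 97.2 in the EVX1-Δfs libraries. Wildtype replicate 3 was above all other libraries, and wildtype replicates 1 and 2 were below all others. The log2 fold change was 0.26 ± 0.21 (SE; adjusted p = 0.489), with a 95% interval of -0.18 to 0.71, which lies above the fold change of each of the 7 called genes. The estimate was 0.52 (adjusted p = 0.168) without wildtype replicate 3, 0.14 without wildtype replicate 1 (adjusted p = 0.784) and 0.12 without wildtype replicate 2 (adjusted p = 0.798).

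Notch1, the receptor required for somite boundaries, maps to chr2:26313423-26372183 (minus strand). It was at 1309, 1243 and 819 in the wildtype libraries and at 961, 965 and 1028 in the EVX1-Δfs libraries. Here wildtype replicate 3 was the lowest of the 6 libraries, and the EVX1-Δfs values fell between it and the other wildtype values. The log2 fold change was -0.16 ± 0.14 (SE; adjusted p = 0.519), with a 95% interval of -0.45 to 0.13. Without wildtype replicate 3 it was -0.37 with an adjusted p of 0.0645, and without wildtype replicate 1 or 2 it was -0.04 or -0.07 (adjusted p = 0.921 and 0.823), so its size rests on single wildtype libraries. Notch1 shares 1068 exon bases with 0610009E02Rik and 414 with Gm13568, both on the opposite strand.

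Notch3 was the most abundant receptor of the family per kilobase and was not called, at 2103 ± 371 in wildtype EBs against 1664 ± 158 in EVX1-Δfs EBs (SD, n = 3 each; log2 fold change -0.33 ± 0.13 SE, adjusted p = 0.128). It was called without wildtype replicate 3, where its log2 fold change was -0.48 (adjusted p = 0.0176). As a percentage of the per-kilobase sum of all 4 receptors, Notch1 made up 17.4 ± 1.05% in wildtype EBs against 18.0 ± 1.31% in EVX1-Δfs EBs (SD, n = 3 each). Notch3 was 56.1% to 59.5% of the sum in wildtype and 51.9% to 55.7% in EVX1-Δfs EBs. Notch2 was 18.8% to 22.0% and 24.3% to 25.8%. The groups did not overlap for the shares of Notch3 and Notch2, and no test was run on any share. The count of Notch2 itself was 989 ± 257 in wildtype EBs against 1008 ± 63.4 in EVX1-Δfs EBs (SD, n = 3 each). It was not called, at a log2 fold change of 0.06 ± 0.15 (SE; adjusted p = 0.836 in limma).

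Of the repressors that Notch switches on, Hey1 and Hes1 were called lower. Hey1, a Hairy-related repressor and a direct Notch target in many tissues, maps to chr3:8663362-8667039 (minus strand). Its normalized count was 277, 313 and 286 in the wildtype libraries and 148, 157 and 156 in the EVX1-Δfs libraries. Both groups were tight and far apart, and the differences within the pairs lay between -0.99 and -0.87 on the log2 scale. As for Tbx6 and Dll1, the EVX1-Δfs SD of 3.03% of the mean is smaller than the 8.06% that counting error alone gives. This closeness therefore understates the error. The log2 fold change was -0.92 ± 0.14 (SE) with an adjusted p of 5.5e-04. Hey1 and Msgn1 kept their calls under all 16 alternative settings, with adjusted p from 2.42e-06 to 0.00859 for Hey1 and from 6.16e-07 to 0.00475 for Msgn1.

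Hes1, a Hairy and Enhancer of split repressor that oscillates in many cell types, maps to chr16:30064470-30067882 (plus strand). It was at 617, 743 and 634 in the wildtype libraries and at 393, 518 and 347 in the EVX1-Δfs libraries. Replicate 2 was highest in each group, and the groups did not overlap. Hes1 had a log2 fold change of -0.68 ± 0.14 (SE) with an adjusted p of 0.00849. The call was lost without EVX1-Δfs replicate 3 (adjusted p = 0.0559).

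Hes7, the core repressor of the mouse segmentation clock, maps to chr11:68933906-68937557 (plus strand). It had 4, 0 and 3 reads in the wildtype libraries and 2, 3 and 0 in the EVX1-Δfs libraries. The sums of 7 reads in wildtype (exact 95% Poisson interval 2.81 to 14.4) and 5 in EVX1-Δfs (1.62 to 11.7), which cover counting error only, show no difference that could be detected at this depth. Hes7 was not tested, and its direction differed between the replicate pairs. The other HES and HEY genes were mostly as low: Hes2, Hes3, Hes5 and Heyl stayed under the filter, at most 4.67 in any library. Hes6, a HES relative that counteracts Hes1 in neural cells, was the highest of that list per kilobase and was not called (log2 fold change -0.17 ± 0.16 SE, adjusted p = 0.548). Of this list, 2 genes were tested and 0 were called by limma, DESeq2 or edgeR, or had an unadjusted p under 0.05 in limma.

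**Figure D2:**
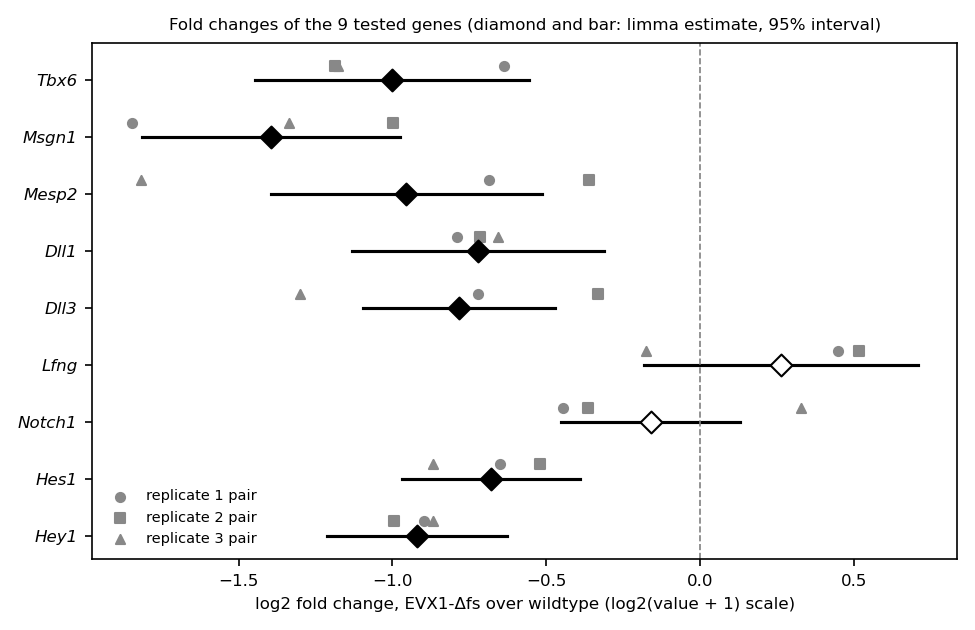
Log2 fold change (EVX1-Δfs over wildtype) of the 9 tested genes; diamonds and bars are the limma estimate with its 95% interval, filled where the adjusted p was under 0.05, and grey shapes are the differences within the 3 same-numbered pairs. The 7 filled estimates run from -1.39 for Msgn1 to -0.68 for Hes1, all with intervals below 0, while the intervals of Lfng and Notch1 span 0.

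The 7 called genes were also those whose libraries did not overlap between genotypes and those lower in all 3 same-numbered pairs, taken here as differentiations begun on the same day. Over all genes tested, 14.7% had every EVX1-Δfs library below every wildtype library, and 23.2% were lower in all 3 pairs. The median difference over the 9 genes was -0.69, -0.52 and -0.87 on the log2 scale in pairs 1, 2 and 3, with 8 of 9 genes below 0 in each. Lfng was above 0 in pairs 1 and 2 and at -0.18 in pair 3, and Notch1 was below 0 in pairs 1 and 2 and at 0.33 in pair 3. No replicate held the lowest EVX1-Δfs value throughout: replicates 1, 2 and 3 held it for 4, 2 and 3 of the 9 genes.

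With the replicate number as a block, 5 of the 9 genes were called lower (Tbx6, Msgn1, Dll3, Hes1 and Hey1), against 1.11% of all genes. DESeq2 called the same 7 genes lower as limma, against 4.45% of the genes it gave an adjusted p, and edgeR the same 7, against 2.87%. In these libraries the log2 fold change fell as the GC content of the exons rose (Spearman's rho = -0.460 across 12977 genes, which are not independent replicates), and the 9 genes are GC-rich, with a median of 58.4% against 50.3% for all genes tested. With trends on GC content and length removed per library, 6 of the 9 were called lower, all but Dll1, against 1.40% of all genes. With both the block and this correction, Msgn1, Hes1 and Hey1 were called, against 1.01%, and the adjusted p was 0.0742 for Tbx6, 0.0580 for Dll3, 0.0938 for Mesp2 and 0.134 for Dll1. Such a correction would also take away a genotype effect that happened to track GC content or length.

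**Figure D3:**
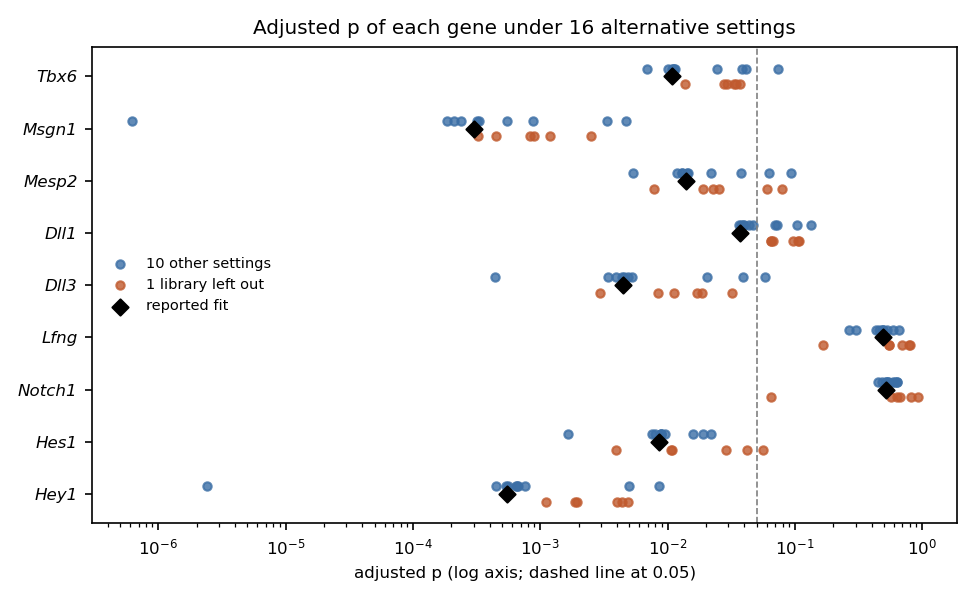
Adjusted p of each of the 9 tested genes (log axis) in the reported fit (diamonds) and under 16 alternative settings, 10 of analysis (blue) and 6 that leave out 1 library (orange); the dashed line is at 0.05. All points of Msgn1 and Hey1 lie left of the line and all of Lfng and Notch1 right of it, while 10 of the 16 points of Dll1 and 4 of those of Mesp2 lie right of it.

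The levels of the genes were ordered by wildtype normalized count per kilobase of annotated exon. Msgn1 stood highest at 370 per kilobase, above 87.7% of the tested genes with a length, followed by Hes1 at 326, Dll3 at 158, Hey1 at 133, Mesp2 at 86.2, Notch1 at 78.9, Tbx6 at 47.0, Lfng at 34.6 and Dll1 at 20.8. Wildtype libraries overlapped between Msgn1 and Hes1, Dll3 and Hey1, Mesp2 and Notch1, and Tbx6 and Lfng, and did not overlap between the other neighbours in this order. The annotation gives Msgn1 a single block of 567 bases, a whole number of codons that may leave out untranslated sequence, so its level per kilobase may be overstated. Dll1 stood above 25.6% of the genes, which leaves it the fewest reads per base of exon of the 9.

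The rest of the Notch pathway was mostly not called. Of 47 other Notch genes, 42 were tested, 3 were called lower and 0 higher, with a median log2 fold change of -0.03. At an unadjusted p under 0.05 in limma, 9 were lower and 3 higher, and DESeq2 and edgeR called 0 higher. Nrarp, a Notch target that feeds back to limit the Notch complex, went from 519 ± 26.0 to 349 ± 55.1 (SD, n = 3 each), a log2 fold change of -0.58 ± 0.13 (SE) with an adjusted p of 0.0159. Neurl1a, a ubiquitin ligase acting on ligands, was at -0.53 ± 0.15 (SE; adjusted p = 0.0375), and Dtx2, a Deltex ubiquitin ligase, at -0.43 ± 0.12 (SE; adjusted p = 0.0445) on the log2 scale. With the block none of the 3 was called, at adjusted p of 0.0545, 0.0574 and 0.0624, and with GC and length trends removed 0 of the 42 were called. The call of Nrarp was also lost without EVX1-Δfs replicate 3 (adjusted p = 0.106), that of Neurl1a without replicate 1 of either group, wildtype replicate 2 or EVX1-Δfs replicate 3 (0.0670 to 0.221), and that of Dtx2 without any library but wildtype replicate 2 (0.0740 to 0.146).

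Among the listed genes for cleavage, glycosylation and the nuclear complex of Notch signalling, the reported fit called none. Of the 8 genes for cleavage of the receptor, which include the ADAM proteases and γ-secretase, limma called 0, with 1 higher and 1 lower at an unadjusted p under 0.05. DESeq2 called 1 of these, the γ-secretase subunit Aph1a, at an adjusted p of 0.0442, beside 0.0555 in limma, and edgeR called 0. Without EVX1-Δfs replicate 2, limma called Aph1a lower too (log2 fold change -0.56, adjusted p = 0.0328). Psenen, another γ-secretase subunit and the highest of these per kilobase, was at 0.10 ± 0.14 (SE; adjusted p = 0.715) on the log2 scale. Of the 4 glycosylation genes, 0 were called, and Rfng, a Fringe relative of Lfng, was at -0.10 ± 0.15 (SE; adjusted p = 0.734). Of the 8 nuclear factors around RBPJ, 0 were called and 2 were lower at an unadjusted p under 0.05, and the coactivator Snw1 was at -0.07 ± 0.13 (SE; adjusted p = 0.785). Neither DESeq2 nor edgeR called any gene of the glycosylation and nuclear lists. Mib2, a ubiquitin ligase for ligands, was at -0.33 ± 0.13 (SE; adjusted p = 0.125), and the Deltex relative Dtx3 at 0.19 ± 0.16 (SE; adjusted p = 0.483).

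**Figure D4:**
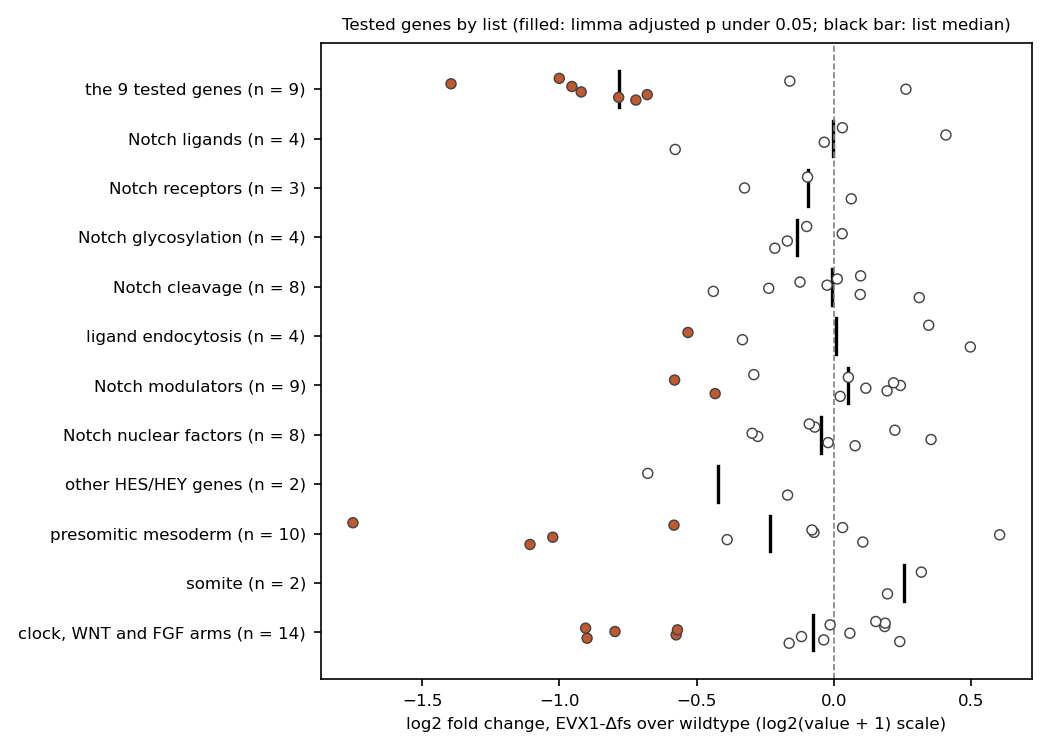
Log2 fold change (EVX1-Δfs over wildtype) of each tested gene by list; filled points had an adjusted p under 0.05, and black bars are list medians. The 9 genes have a median of -0.78, while the medians of the Notch lists run from -0.42 (2 other HES and HEY genes) to 0.05 and that of the WNT and FGF clock genes is -0.08. The presomitic mesoderm list has a median of -0.23 and the somite list 0.26.

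The segmentation clock also has arms made of WNT and FGF targets. All 14 listed genes were tested, 5 were called lower and 0 higher, with a median log2 fold change of -0.08. None was higher at an unadjusted p under 0.05, and DESeq2 and edgeR called the same number in each direction. Dusp4, a phosphatase that damps ERK signalling below FGF, went from 3040 ± 112 to 1632 ± 117 (SD, n = 3 each), a log2 fold change of -0.90 ± 0.11 (SE) with an adjusted p of 4.9e-05. Snai1, the repressor of E-cadherin in gastrulating cells, was at -0.90 ± 0.15 (SE; adjusted p = 0.00116), Myc, a growth regulator, at -0.80 ± 0.15 (SE; adjusted p = 0.00358) and Nkd1, a WNT feedback inhibitor, at -0.57 ± 0.12 (SE; adjusted p = 0.00729). These 4 calls held under all 16 settings. Efna1, an ephrin ligand, was at -0.57 ± 0.16 (SE; adjusted p = 0.0427), and lost its call with the block (0.0734) and without any of 5 of the 6 libraries.

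Markers of other cells in the EBs are given beside these results, as the range of their summed normalized counts. The summed normalized count of 5 primitive streak genes, the tissue from which paraxial mesoderm comes, was 7116 to 8900 in wildtype and 5356 to 6877 in EVX1-Δfs EBs, with Mixl1 and Eomes called lower among the 5 and Eomes no longer called with the block (adjusted p = 0.0586). Lateral and cardiac mesoderm genes summed to 3287 to 5398 and 1837 to 2443, with Hand1 and Foxf1 called lower and Tbx5 higher among 7 tested of 9. With the block Hand1 alone was called, Foxf1 being at an adjusted p of 0.0574 and Tbx5 at 0.0559, and DESeq2 called 0 of this list higher. Endothelial genes, a cell type that uses Notch heavily, summed to 2874 to 3700 and 1878 to 2029, with Kdr and Etv2 called lower and Flt1 higher among 10 tested of 11, also with the block. These 3 sums did not overlap between genotypes, and the next 2 did. Single genes weigh heavily in the sums, so a sum does not stand for a whole cell type. Kdr averaged 1987 in wildtype and 1048 in EVX1-Δfs EBs, and Hand1 2925 and 1185. The streak sum includes Evx1 itself, at 2311 and 2294. Nes made up most of the neurectoderm sum given below, at 2397 in wildtype and 2384 in EVX1-Δfs EBs. Fold changes were below 0 for 5 of 5 tested streak genes, 4 of 7 lateral and cardiac genes and 8 of 10 endothelial genes. Pluripotency genes summed to 13902 to 21323 in wildtype and 17948 to 22604 in EVX1-Δfs EBs, and 9 of 10 had a log2 fold change above 0, of which limma called 1, Fgf5 (0 with the block, adjusted p = 0.0624), and DESeq2 and edgeR 5 each. Neurectoderm genes, in which Hes1 and Dll1 are also used, summed to 2286 to 3050 and 2583 to 2780, with Sox3 called lower among 4 tested of 10, a call lost with the block (adjusted p = 0.0864). Sox1, Zic1, Six3 and Neurog2 stayed under the filter, and Pax6, a factor of the neural tube, was at 7.75 ± 3.82 in wildtype EBs against 19.8 ± 6.83 in EVX1-Δfs EBs (SD, n = 3 each; adjusted p = 0.0803). No gene of these 5 marker lists was at 0 in all libraries. The part of any of these cell types in the values of the 10 genes was not tested.

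Genes whose profile over the 6 libraries lay nearest the mean profile of the 10 were sought among 10621 tested genes whose mean normalized count reached 50, by the root mean square difference of log2 values centred on wildtype. The nearest were Aldh2, a mitochondrial aldehyde dehydrogenase (0.0669), Ccdc94 (0.0716), Chst7, a sulfotransferase (0.0732), Ccdc102a (0.0756) and Akt1s1, a subunit of mTORC1 (0.0763). Their log2 fold changes ran from -0.70 for Aldh2 to -0.59 for Ccdc94. The mean profile includes Hes7, Lfng and Notch1, so it is shallower than that of the 7 called genes. Hes7 also affects its shape, with 0 to 4 reads per library and 0 in wildtype replicate 2 and EVX1-Δfs replicate 3. The choice of nearest genes thus rests partly on counting error of Hes7.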

How the data were processed

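The authors selected mRNA, sequenced on an Ion Proton, mapped reads to mm9 with TopHat2 and TMAP and counted them per gene with HTSeq at standard settings, which count by strand; versions and gene annotation are not given in the sources used here. The deposited table, described as counts, holds a signal: reads divided by 1 size factor per library. All of its values (100%) came out as whole reads within 0.01, and its factors differed from DESeq2's by at most 0.00564%. Of the symbols, 22013 (94.3%) matched GENCODE vM1 on NCBIM37, 806 by an older symbol; lengths and GC content are of its exons.

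Because the values were normalized, the main test was limma (3.58.1; R 4.3.3) with a mean-variance trend on log2(value + 1), genotype only, with Benjamini-Hochberg adjustment over all 13136 genes tested. The pseudocount of 1 understates changes of low genes. The recovered reads were also tested with DESeq2 (1.42.0), the study's tool, and with the quasi-likelihood test of edgeR (4.0.16). The fits were tested on simulated data.

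Per the authors' methods, samples compared side by side were begun on the same day and each replicate on another day. The replicate number was taken to mark that day and to pair the libraries, which the labels do not state by number. Deviations from group means correlated at 0.111, 0.00933 and -0.101 within pairs 1, 2 and 3 (13136 genes). Blocked values are given where they end a call.

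The 10 genes and all lists were chosen with earlier results of these data known. Beside the 10 and Evx1, genes named are those called in the Notch, paraxial mesoderm and clock lists, the highest of each list per kilobase, and the 5 nearest profiles; Fgf8, Aph1a, Notch2, Mib1, Meox2, the low HES genes and the marker genes named were picked after their values were seen. Some listed genes are not reported here. Alternatives were TMM and upper-quartile scaling, pseudocounts of 0.5 and 4, no filter, DESeq2, edgeR, the block, removal of GC and length trends (splines with 5 degrees of freedom), both together, and leaving out each library.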

Additional observations from a re-analysis of the deposited data

How the results depend on the processing

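Over the 9 tested genes and 16 alternatives, 127 of 144 values stayed on the same side of both 0 and the threshold, 17 lost a call and 0 changed sign. The number of the 9 called lower (7 in the report) was 3 with the replicate block and GC and length trends removed together, and 4 to 6 on leaving out 1 library, the 4 being without EVX1-Δfs replicate 3. Of the other Notch genes, 3 were called lower in the report, 0 with the block, 0 with trends removed, 0 with both, and 0 to 3 with 1 library left out, the 0 being without EVX1-Δfs replicate 3 and a count of 1 without wildtype replicate 1 or EVX1-Δfs replicate 1; 0 to 1 were called higher, the 1 being Mib1 (log2 fold change 0.64, adjusted p = 0.0393) without wildtype replicate 1. Other paraxial mesoderm genes called lower went from 4 to 2 with the block, 2 with both corrections and 2 to 5 with 1 library left out, the 2 being without EVX1-Δfs replicate 1. The block changed no call of these lists and the 9 genes other than those given. Over all genes, 273 were called higher and 387 lower in the report, 76 and 146 with the replicate block, 101 and 182 with trends removed, 69 and 131 with both, and 80 to 340 and 140 to 362 with 1 library left out. Upper-quartile scaling gave 370 higher and 325 lower. The causes of these differences were not tested. At most 102 reads per library lie behind Tbx6, Dll1 and Lfng, and a group of 3 differentiations of 1 clone limits every statement to that clone.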
